A study of Mus musculus with 7 samples.

Results

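The 9 genes described here mark deep-layer projection neurons of the cortex and were followed in bulk RNA of the mouse medial prefrontal cortex: Foxp2, Tle4, Rprm, Syt6, Tbr1, Fezf2, Bcl11b, Crym and Tshz2. They were selected by gene symbol, with earlier results of these data known. These 9 rows stand among 17732 genes in the authors' deposited table. All 9 had an adjusted p-value there, as did 13060 genes in all, which are called the tested genes below. The libraries came from male wild-type (WT) mice of the inbred strain 129SvEv after retrieval of a remote memory, 3 in a group labelled CFC and 4 in a group labelled SC. The labels leave both abbreviations unexpanded, give no age, and name no allele or agent that separates the groups. The title of the series places the study in safety learning, with parvalbumin interneurons and oligodendrocytes of the infralimbic cortex as its subject.

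The projection neurons of the deep cortical layers are sorted by where their axons go. Corticothalamic neurons lie mostly in layer 6 and send axons to the thalamus, subcerebral neurons lie in layer 5 and reach the brainstem and spinal cord, and near-projecting neurons lie at the border of the layers and have few long-range targets. A small set of transcription factors, among them Fezf2, Bcl11b and Tbr1, sets these identities in development, and many of the genes stay on in the adult. In the medial prefrontal cortex, subcerebral neurons carry output to the midbrain and brainstem, and corticothalamic neurons carry it to the mediodorsal and midline thalamus.

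Each value is the authors' comparison of the groups over all 7 libraries: the log2 fold change with its standard error (SE), p-values, and the normalized count averaged over libraries. Single libraries were not analysed here, so the spread between libraries enters through the SE alone. Whether the libraries of a group came from separate animals is not stated in the labels, and the p-values measure the spread between these libraries. The table does not name its groups and was taken to compare CFC and SC, the only groups in the labels. The numerator of the fold change is not stated either, so a difference is called positive or negative after its sign in the authors' deposited table. In bulk tissue, fewer cells of a type and less RNA per cell cannot be told apart.

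All 9 genes had a positive log2 fold change, and 2 of them, the corticothalamic markers Foxp2 and Tle4, passed an adjusted p-value of 0.05. Among all 13060 tested genes 0.513% passed, and 0.368% passed on the positive side. Of the other 7 genes, 6 had an unadjusted p-value under 0.05 without passing the adjustment. This left 8 of the 9 with a positive difference at an unadjusted p-value under 0.05, where 4.56% of tested genes met that rule (8.1% in either direction and 3.54% on the negative side). The remaining gene was the near-projecting marker Tshz2. The median log2 fold change of the 9 genes was 0.33, and that of all tested genes was -0.0017, with quartiles of -0.07 and 0.07. By share, 49.4% of tested genes were positive.

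**Figure D1:**
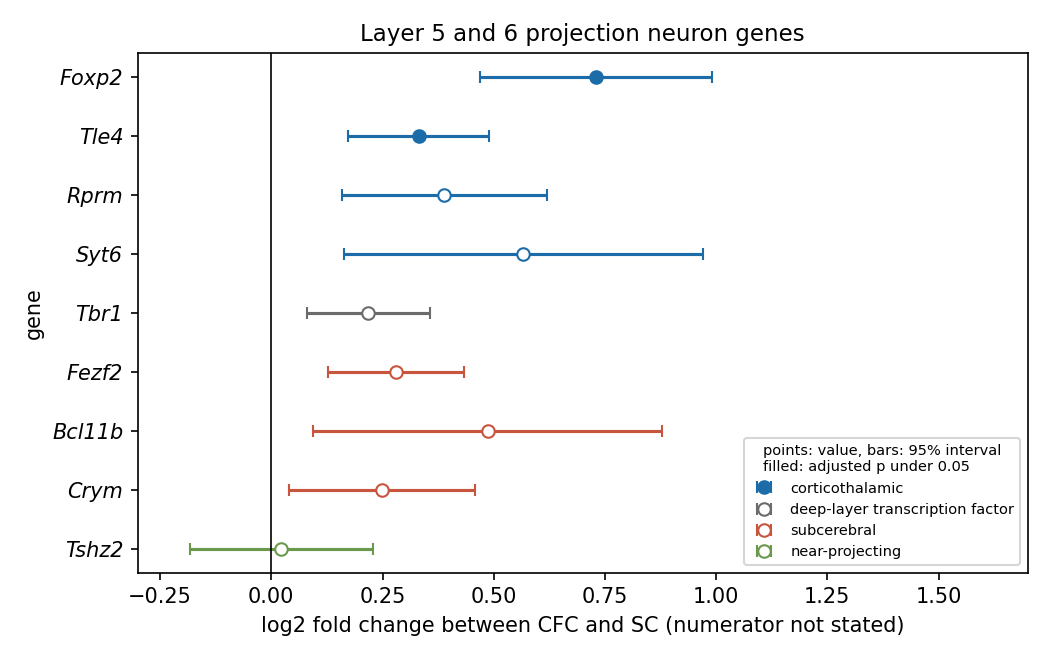
Log2 fold change between CFC and SC for each of the 9 genes (horizontal axis, log2 scale, numerator not stated), with bars for the 95% confidence interval computed from the SE and colours for the class of neuron. Filled points, Foxp2 at 0.73 and Tle4 at 0.33, had an adjusted p-value under 0.05, and Tshz2 is the only one of the 9 whose bar spans 0.

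Foxp2 encodes a forkhead transcription factor that marks layer 6 corticothalamic neurons in the adult cortex. Its mean normalized count was 409 and its log2 fold change 0.73 (SE 0.13) in the authors' deposited table, the largest difference among the 9. This is a 1.66-fold difference with a 95% confidence interval from 1.38-fold to 1.99-fold, and the adjusted p was 1.08e-04 in the authors' deposited table. By p-value, Foxp2 ranked 6 of the 13060 tested genes. The gene (ENSMUSG00000029563) spans 541 kb of chromosome 6, from 14901349 to 15441977 on the plus strand of GRCm38, the build of all gene positions given here.

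Tle4 encodes a Groucho-family corepressor found in layer 6 corticothalamic neurons (ENSMUSG00000024642, chromosome 19, 14448150 to 14598051, minus strand). Its log2 fold change was 0.33 (SE 0.08) at a mean normalized count of 1443, with an adjusted p of 0.0168, in the authors' deposited table. The difference is 1.26-fold, with a 95% confidence interval from 1.13-fold to 1.40-fold. Tle4 thus passed with a smaller difference than Rprm or Syt6, at a smaller SE. Its call was lost with a Bonferroni adjustment (0.547). Tested against changes of up to 1.2-fold in place of no change, neither gene was called, with an adjusted p of 0.676 for Foxp2.

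The other corticothalamic markers were positive without passing. Rprm encodes Reprimo, a small protein first described as a mediator of cell cycle arrest and used as a layer 6 marker (ENSMUSG00000075334, chromosome 2, 54084093 to 54085552, minus strand). It had a log2 fold change of 0.39 (SE 0.12) at a mean normalized count of 857 and an adjusted p of 0.116 in the authors' deposited table. Rprm passed, with an adjusted p of 0.0335, once the Wald statistic had been corrected by linear regression for mean count, GC content and transcript length. Syt6 encodes a synaptotagmin, a family of membrane-trafficking proteins (ENSMUSG00000027849, chromosome 3, 103575231 to 103645569, plus strand). Its log2 fold change of 0.57 (SE 0.21) at a mean normalized count of 737 was exceeded only by that of Foxp2 among the 9 in the authors' deposited table, yet its adjusted p was 0.281. The SE separates these cases: at the error of Syt6 a log2 fold change of about 0.76 would have been needed for a call, and at the error of Tle4 about 0.30. These limits are the smallest Wald statistic among called genes, 3.68, times each gene's SE.

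Tbr1, a T-box transcription factor required for layer 6 identity and expressed in many other glutamatergic neurons of the cortex, had the highest mean count of the 9 (ENSMUSG00000035033, chromosome 2, 61802930 to 61814114, plus strand). Its mean normalized count was 4331 and its log2 fold change 0.22 (SE 0.07), with an adjusted p of 0.170, in the authors' deposited table. The 95% confidence interval ran from 0.08 to 0.36 on the log2 scale, so a difference as large as that of Foxp2 lies outside it.

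None of the 3 subcerebral markers passed in the authors' deposited table, and all 3 were positive with an unadjusted p-value under 0.05. Fezf2 encodes the zinc-finger factor that specifies subcerebral projection neurons (ENSMUSG00000021743, chromosome 14, 12342094 to 12348189, minus strand). It came closest, with a log2 fold change of 0.28 (SE 0.08) at a mean normalized count of 1204 and an adjusted p of 0.0581 in the authors' deposited table. Fezf2 stood on both sides of the threshold depending on the adjustment. Its adjusted p was 0.0497 when only genes with mean counts of 100 or more entered, 0.0485 with fold changes centred on their median and 0.0231 after the regression on gene properties.

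Bcl11b, also called Ctip2, encodes a zinc-finger factor that acts downstream of Fezf2 in subcerebral neurons (ENSMUSG00000048251, chromosome 12, 107910403 to 108003602, minus strand). It is also expressed in striatal projection neurons and in cortical interneurons. Its log2 fold change was 0.49 (SE 0.20) at a mean normalized count of 2550, with an adjusted p of 0.421, in the authors' deposited table. The 95% confidence interval was wide, from 0.09 to 0.88 on the log2 scale. Crym encodes mu-crystallin, a thyroid hormone binding protein enriched in subcerebral neurons (ENSMUSG00000030905, chromosome 7, 120186380 to 120202111, minus strand). It had a log2 fold change of 0.25 (SE 0.11) at a mean normalized count of 1562 and an adjusted p of 0.467 in the authors' deposited table.

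Tshz2 encodes a teashirt zinc-finger factor that marks near-projecting neurons (ENSMUSG00000047907, chromosome 2, 169633013 to 170071816, plus strand). Its log2 fold change of 0.02 (SE 0.10) at a mean normalized count of 724 was the smallest of the 9, with an adjusted p of 0.999, in the authors' deposited table. The 95% confidence interval ran from -0.18 to 0.23. It excludes the point estimates of the 4 corticothalamic and 3 subcerebral markers, and it does not exclude that of Tbr1 (0.22). Those estimates have errors of their own. With both errors counted at the widest interval, described below, only Foxp2 was separated from Tshz2. The counting of Tshz2 carries a limit that most of the other members lack. In GENCODE M21, 65.2% of its exon length is shared with Gm26883 on the opposite strand. The strand setting of the counting is not given in the sources used here, and without it reads of this pair cannot be told apart. Exons of Syt6 overlap those of a pseudogene, Atg4a-ps, on the opposite strand over 8.67% of their length, and the other 7 genes share no exon with another annotated gene.

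The spread of upstream sequence among the members is shown by the promoters of a called corticothalamic gene, an uncalled one and Tshz2. Each line gives the 250 bases before the RefSeq start site (GRCm38.p6), 5′ to 3′ on the gene's strand, for windows that touch no annotated exon of GENCODE M21. Capitals mark CG dinucleotides.
Tle4 (chr19:14598184-14598433, minus strand): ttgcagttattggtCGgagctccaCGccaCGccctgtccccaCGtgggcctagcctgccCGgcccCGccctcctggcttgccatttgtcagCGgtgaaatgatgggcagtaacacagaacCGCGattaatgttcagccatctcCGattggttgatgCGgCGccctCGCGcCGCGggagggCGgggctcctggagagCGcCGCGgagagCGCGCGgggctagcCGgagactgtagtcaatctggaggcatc
Rprm (chr2:54085553-54085802, minus strand): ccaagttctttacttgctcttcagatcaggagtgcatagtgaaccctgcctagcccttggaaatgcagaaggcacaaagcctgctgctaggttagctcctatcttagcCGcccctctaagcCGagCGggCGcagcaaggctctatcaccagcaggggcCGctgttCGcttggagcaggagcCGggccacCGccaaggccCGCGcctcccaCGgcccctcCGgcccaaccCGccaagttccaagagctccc
Tshz2 (chr2:169632259-169632508, plus strand): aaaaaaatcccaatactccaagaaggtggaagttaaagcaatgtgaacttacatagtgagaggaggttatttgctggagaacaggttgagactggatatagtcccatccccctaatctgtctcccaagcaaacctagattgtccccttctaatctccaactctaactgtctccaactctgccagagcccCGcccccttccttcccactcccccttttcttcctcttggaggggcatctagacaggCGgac
The Tle4 window holds 24 CG dinucleotides, the Rprm window 13 and the Tshz2 window 2. The observed over expected CG ratio was 0.90 for Tle4, 0.55 for Rprm and 0.14 for Tshz2, beside a median of 0.37 over 32851 promoter windows of the same length. RefSeq promoter entries were matched for 7 of the 9 genes, in 10 windows. The T-box site GGTGTGA and the forkhead site GTAAACA were searched on both strands. Neither was present in any of the 10 windows, which include 3 of Syt6 and 2 of Tle4. Of all windows, 3.33% held the T-box site and 3.17% the forkhead site, so 10 windows are too few to show a lower share. These are descriptions of letters in a window and were not tied to the fold changes.

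Between classes, the corticothalamic markers had larger differences than the near-projecting marker in 4 of 4 pairs, and larger ones than the subcerebral markers in 10 of 12. These pairs share genes, and Tshz2 is the only near-projecting marker, so the counts are not of independent comparisons. The median log2 fold change was 0.48 for the 4 corticothalamic and 0.28 for the 3 subcerebral markers. Few of these gaps exceeded their error. Both genes of a pair are measured in the same libraries and their correlation is not known, so the widest 95% interval that any correlation allows was given to each difference. It excluded 0 in 3 of 19 pairs, all of them with Foxp2.

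The log2 fold change of Foxp2 was higher than that of Tshz2 by 0.71, with a widest interval from 0.24 to 1.17. It was higher than that of Crym by 0.48, with a widest interval from 0.01 to 0.95. The gap to Fezf2 was 0.45, with a widest interval from 0.04 to 0.86. Foxp2 and Bcl11b were not separated (difference 0.24, from -0.41 to 0.90). Tle4, the other called gene, lay close to the subcerebral markers: its difference from Fezf2 was 0.05, from -0.26 to 0.36. Both exceptions to the order of corticothalamic over subcerebral involved Bcl11b, which had a higher value than Tle4 by 0.16 and than Rprm by 0.10. With the intervals widened for 19 comparisons by a Bonferroni adjustment, none excluded 0 at the widest correlation. With a correlation of 0 between genes, 8 of 19 excluded it, 1 of them, Foxp2 against Tshz2, also after the adjustment.

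**Figure D2:**
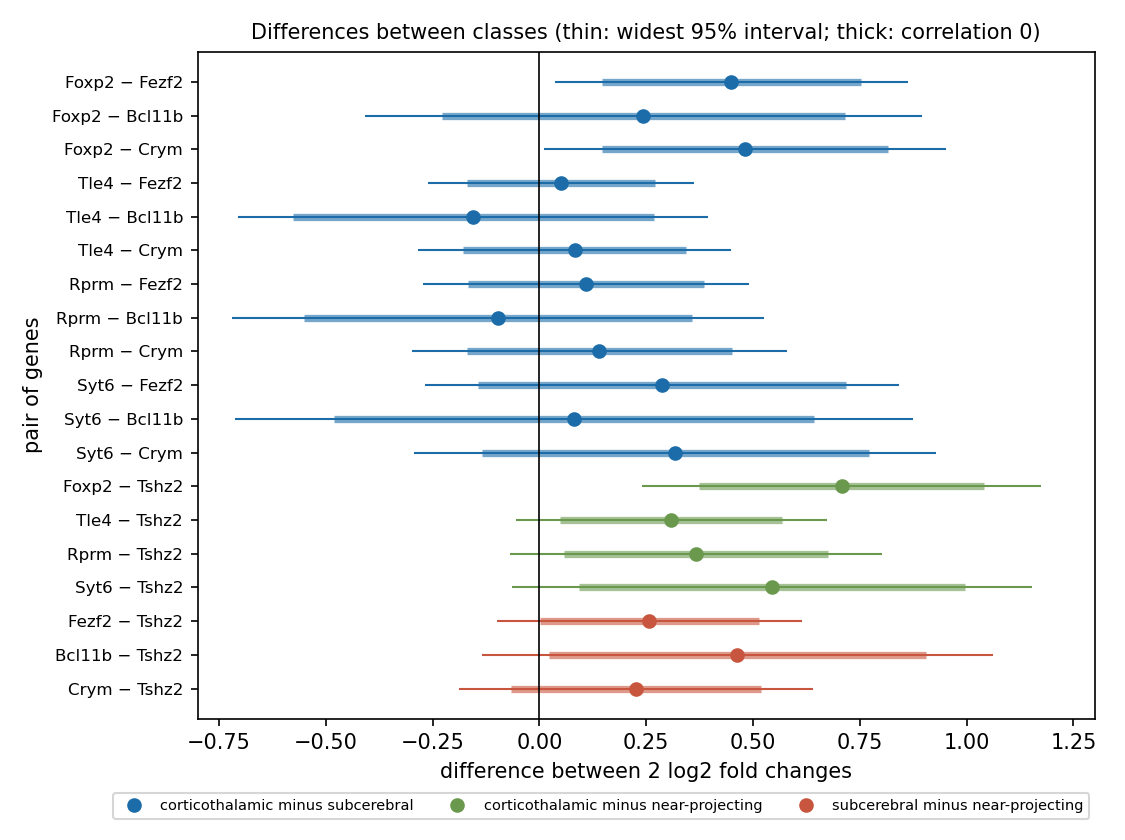
Difference between the log2 fold changes of 2 genes (horizontal axis, first gene minus second gene) for the 19 pairs of different classes. Points are the differences, thin lines the widest 95% interval and thick lines the interval at a correlation of 0 between the genes. The thin lines stay above 0 for Foxp2 against Fezf2, Crym and Tshz2.

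Levels were compared between genes per kilobase of exon, as the mean normalized count over both groups. In that order Tbr1 had 790 per kilobase, Rprm 587, Crym 461, Fezf2 395, Bcl11b 314 and Tle4 253, and the lowest were Syt6 with 126, Tshz2 with 93.1 and Foxp2 with 25.0. The 2 genes with the lowest level per kilobase therefore had the largest and the smallest log2 fold change. Foxp2 remained lowest, at 60.6 per kilobase, when the longest transcript was used in place of the union of exons. The table holds no spread of these means, so neighbours in the order are not separated.

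Errors were unequal among the members. For Bcl11b the SE was 3.18 times the running median of tested genes of similar mean count, and for Syt6 2.46 times. Ratios above 2 were found in 1.85% of tested genes. The other 7 members had ratios from 1.07 for Fezf2 to 1.53 for Crym, all above the running median. The ratio of Crym was exceeded by 1.97% of tested genes, that of Foxp2 by 4.81% and that of Fezf2 by 21.8%. The error in excess of genes of like abundance was thus largest for Bcl11b and Syt6, both of which had log2 fold changes above that of the called gene Tle4.

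**Figure D3:**
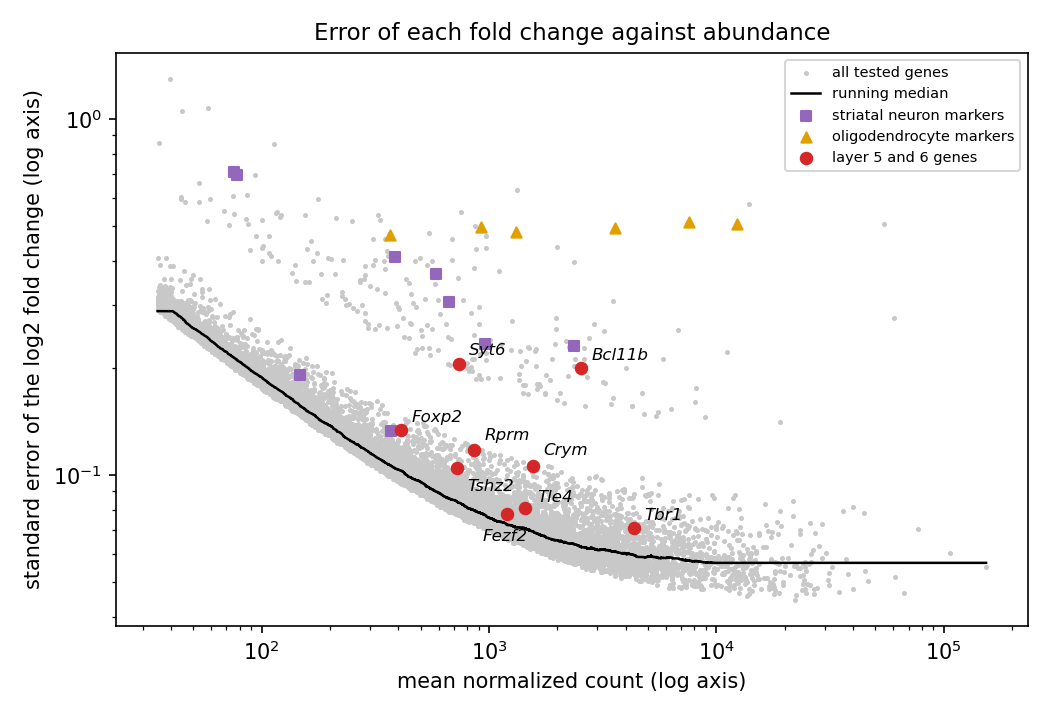
SE of the log2 fold change (vertical log axis) against mean normalized count (horizontal log axis) for 13060 tested genes in grey, with their running median as a line. The layer 5 and 6 genes are red. Syt6 and Bcl11b lie farthest above the line among them, at 2.46 and 3.18 times the median. The other 7 lie nearer to the line, all above it. Striatal markers with ratios above 2 run from 3.02 for Ppp1r1b to 4.10 for Penk. Syt6 is below all of these, and Bcl11b is above Ppp1r1b only.

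Striatal projection neurons share some of these markers, Foxp2 and Bcl11b among them, so a list of 9 striatal genes was read beside the members. All 9 were positive, 1 passed (Drd1) and 5 had an unadjusted p-value under 0.05. Their log2 fold changes ran from 0.04 to 1.95 with a median of 0.70, and 7 of the 9 had SE ratios above 2. None was at 0: mean normalized counts ran from 76.0 for Adora2a to 2354 for Pde10a in the authors' deposited table. Drd1, a dopamine receptor that deep cortical neurons also express, had a log2 fold change of 0.76 (SE 0.13) and an adjusted p of 3.66e-05 in the authors' deposited table. Adora2a, an adenosine receptor, Drd2, a dopamine receptor, and Rgs9, a regulator of G-protein signalling, named after their values were seen, had 1.95 (SE 0.71), 1.63 (SE 0.70) and 1.15 (SE 0.41) in the authors' deposited table. All 3 were larger than the value of any of the layer 5 and 6 genes, with an unadjusted p-value under 0.05 and no call. Ppp1r1b, which encodes DARPP-32 and is also made in layer 6, stood at 0.70 (SE 0.23) and Pde10a at 0.14 (SE 0.23) in the authors' deposited table. Oligodendrocyte markers were positive in 6 of 6, with log2 fold changes from 1.09 to 1.67 and SE ratios from 4.43 to 8.94, and none passed, with 6 at an unadjusted p-value under 0.05. Levels of these lists in each group were not analysed here, and their part in the differences of Foxp2, Bcl11b, Syt6 and the other members was not tested.

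Other genes of the same neuron classes were read from lists. Like all lists here, these were written with earlier results of these data known, so their counts are not independent support for the members. Among all tested genes, 0.368% passed on the positive side and 0.145% on the negative side. Of 7 further corticothalamic and layer 6 genes, 3 passed, all positive, and the median log2 fold change was 0.36. Sulf1, an extracellular sulfatase that edits heparan sulfate, had 0.62 (SE 0.11, adjusted p 1.26e-04) in the authors' deposited table. Hs3st4, a heparan sulfate sulfotransferase, had 0.49 (SE 0.10, adjusted p 0.00135), and Zfpm2, a GATA cofactor of corticothalamic neurons, 0.53 (SE 0.13, adjusted p 0.0262) in the authors' deposited table. The call of Zfpm2 was lost after the regression on gene properties (0.0560) and with a Bonferroni adjustment (0.994). The list was not uniform: Foxp1, the forkhead relative of Foxp2, stood at -0.0036 (SE 0.08) and Garnl3 at -0.13 (SE 0.07) in the authors' deposited table. Ntsr1, the neurotensin receptor used to target corticothalamic neurons and named after its value was seen, had 0.36 (SE 0.12) and an adjusted p of 0.187 in the authors' deposited table.

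Of 12 further subcerebral and layer 5 genes, none passed by the authors' Wald test, and 2 had an unadjusted p-value under 0.05. Their median log2 fold change was 0.06, with 7 positive and 5 negative. Crim1, a transmembrane regulator of BMP signalling, had 0.26 (SE 0.08, adjusted p 0.176), Ldb2, a LIM-domain cofactor, 0.15 (SE 0.06, adjusted p 0.506) and Parm1 0.12 (SE 0.10, adjusted p 0.956) in the authors' deposited table. These values lie below those of Fezf2, Bcl11b and Crym, except that Crim1 was slightly above Crym. Of 5 further near-projecting genes none passed and 2 had an unadjusted p-value under 0.05. Their median was 0.19, with 4 positive and 1 negative. Lypd1 had 0.24 (SE 0.12), Trhr, a receptor for thyrotropin-releasing hormone, 0.24 (SE 0.21) and Rapgef3, an exchange factor activated by cyclic AMP, 0.19 (SE 0.09) in the authors' deposited table. All 3 point estimates exceeded the 0.02 of Tshz2, within the interval of that gene for Rapgef3 only. Their own 95% intervals all overlapped that of Tshz2, from 0.01 to 0.47 for Lypd1, -0.17 to 0.65 for Trhr and 0.02 to 0.35 for Rapgef3. Slc17a8 and Sla2, named after their values were seen, stood at 0.04 (SE 0.20) and -0.26 (SE 0.29) in the authors' deposited table.

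Markers of neighbouring layers were read in the same way. The 5 layer 6b genes were all positive with a median of 1.17, and 2 passed. These were Ccn2 at 2.10 (SE 0.37) and Nxph4 at 1.98 (SE 0.36) in the authors' deposited table. SE ratios were above 2 for 2 of the 5, Ccn2 (2.73) and Cplx3 (2.31), and Nxph4 had a mean normalized count of 53.4. Ccn2 encodes a matricellular growth factor and Nxph4 a neurexophilin, and both log2 fold changes were above the upper limit of the interval of Foxp2, 0.99. Cplx3, a complexin of layer 6b, had 1.17 (SE 0.32, adjusted p 0.0537), and Kcnab1, a potassium channel subunit, 0.09 (SE 0.08) in the authors' deposited table. Of 7 genes of deep intratelencephalic neurons 6 were tested. These cells project within the telencephalon. None of the 6 passed by the authors' Wald test, 1 had an unadjusted p-value under 0.05, and the median was -0.0026. Etv1, Synpr and Gnb4 stood at 0.09 (SE 0.28), -0.13 (SE 0.08) and -0.01 (SE 0.10) in the authors' deposited table.

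The upper-layer list pointed the other way from the members, with 6 of 8 genes negative, a median of -0.24 and 2 negative calls. Otof, which encodes otoferlin, had -0.42 (SE 0.11, adjusted p 0.0496) and Rasgrf2, a Ras exchange factor, -0.31 (SE 0.08, adjusted p 0.0361) in the authors' deposited table. Both calls were lost with a Bonferroni adjustment, and that of Otof also with no filter on the mean count (0.0592) and with the Wald statistic divided by its robust SD (0.0510). Cux2 and Wfs1 stood at -0.27 (SE 0.09) and -0.22 (SE 0.07) without passing in the authors' deposited table. Of 5 genes expressed across cortical excitatory neurons, 1 passed. Slc17a7, the vesicular glutamate transporter, had -0.03 (SE 0.05) in the authors' deposited table, while Camk2a passed at -0.29 (SE 0.06, adjusted p 0.00151). The interneuron list had a median of 0.0039, with no call and no gene at an unadjusted p-value under 0.05 by the authors' Wald test. Its most abundant genes, Gad1, Gad2 and Sst, stood at -0.01 (SE 0.07), 0.09 (SE 0.06) and 0.03 (SE 0.09) in the authors' deposited table.

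**Figure D4:**
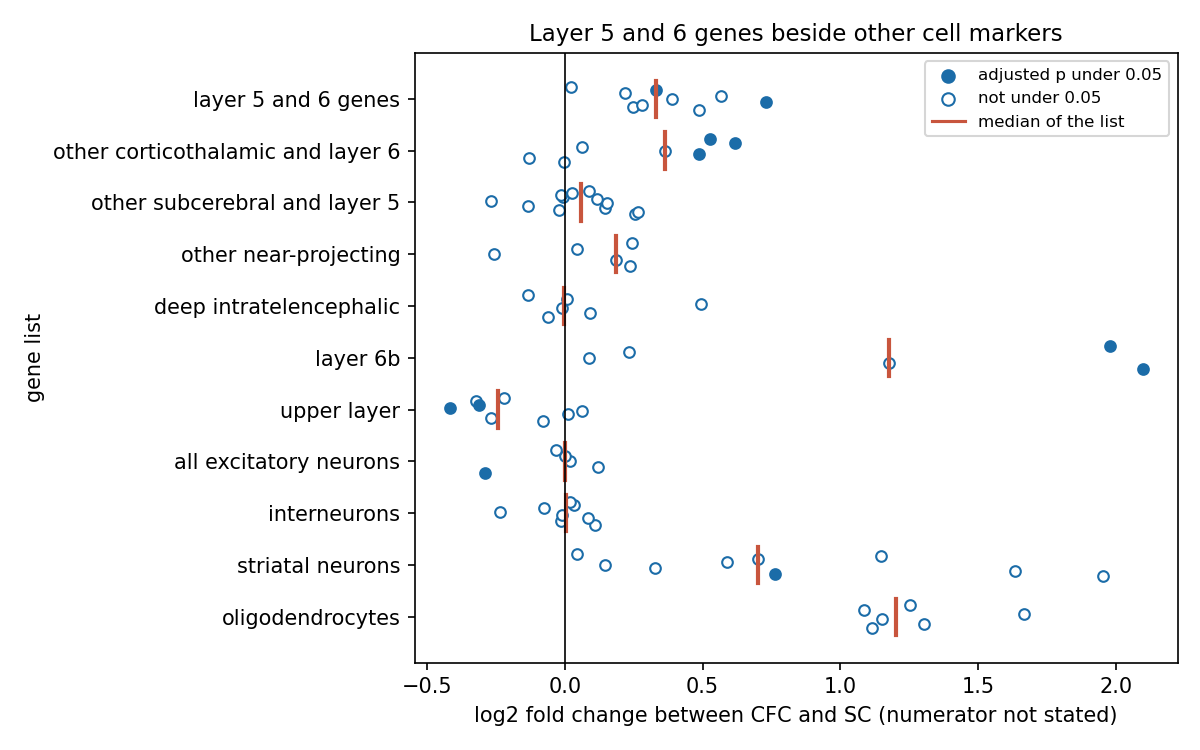
Log2 fold change (horizontal axis, numerator not stated) of each gene in the layer 5 and 6 set and in 10 other marker lists, with filled points for an adjusted p-value under 0.05 and a bar for the median of each list. The layer 5 and 6 set has a median of 0.33, between the upper-layer list at -0.24 and the layer 6b list at 1.17.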

How the data were processed

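Polyadenylated RNA was sequenced from 7 libraries (100 ng of RNA, KAPA mRNA HyperPrep, per the labels' protocols). The submitters' processing notes name Trimmomatic, Subread, DESeq2 and the build mm10, without versions or roles. Per the file headers, the deposited table gives for each gene a mean normalized count (a signal that the authors averaged across libraries) and a log2 fold change with its standard error. Per the file headers, it also gives the Wald statistic, a test score, with an unadjusted and an adjusted p-value.

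The depth of single libraries is unknown. The planned count test could not be run on such a table, and the authors' adjusted p-value with a threshold of 0.05 was used, as the design provided. Members and gene lists were chosen with earlier results of these data known. Of each list, genes past the threshold and the 3 with the highest mean count were named, except some that are not reported here.

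The 95% intervals extend from each value by its SE times the normal quantile. Gene models came from GENCODE M21, which held 17726 of 17732 IDs. SEs were divided by their running median along the mean count. Calculations used Python 3.11.15, NumPy 2.4.6 and SciPy 1.17.1 and were tested on simulated data. Alternatives were other thresholds, adjustments, filters, a fold-change null, centring, rescaling and a regression on gene properties.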

Additional observations from a re-analysis of the deposited data

How the results depend on the processing

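No paired analysis was possible because the table holds no values per library, and for the same reason no library was left out and no other count test was run. Of 67 genes called, 48 were positive. The count was 101 at a threshold of 0.1, 21 with Bonferroni and 2 against a null of at most 1.2-fold, and between 60 and 75 under the other alternatives. Of the 9 members, 2 were called. This became 1 with Bonferroni (Foxp2), 4 after the regression on gene properties (Foxp2, Tle4, Fezf2 and Rprm) and 0 against the 1.2-fold null. Against that null, 1 member (Foxp2) and 72 of all 13060 tested genes had an unadjusted p-value under 0.05. The other alternatives gave 2 or 3 called members. No member changed sign. Pairs whose interval excluded 0 went from 3 of 19 to 8 at a correlation of 0, to 0 with the widest interval and Bonferroni, and to 1 with both changes. A renewed adjustment of the p-values over all tested genes and the Bonferroni intervals were added after the data were seen. Among other named genes, 7 lost their call under at least 1 alternative (13 cases of a gene and an alternative), Cplx3 gained one under 5 alternatives, and Etv1, near 0, turned negative after the regression (adjusted p 0.999). The cause was not tested.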

Other observations

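Lists of microglia, endothelial cells and astrocytes were read beside the deep-layer genes, and none of their 14 genes passed by the authors' Wald test, with 4 at an unadjusted p-value under 0.05, all negative. The 5 microglial genes were all below 0 (median log2 fold change -0.13). Csf1r, the receptor that microglia need to survive, stood at -0.14 (SE 0.07), Cx3cr1 at -0.13 (SE 0.09) and P2ry12 at -0.0073 (SE 0.11) in the authors' deposited table. The 4 endothelial genes were all negative too, with a median of -0.17. Slco1a4, a transporter of the blood-brain barrier, stood at -0.24 (SE 0.08), Pecam1 at -0.18 (SE 0.12) and the VEGF receptor Flt1 at -0.15 (SE 0.07) in the authors' deposited table. The 5 astrocyte genes ran from -0.15 to 0.56 with a median of -0.0081, and 1 had an SE ratio above 2 (5.66). Slc1a3 stood at -0.14 (SE 0.07), Gja1 at 0.09 (SE 0.08) and Aqp4 at -0.0081 (SE 0.10) in the authors' deposited table.

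Among the most abundant oligodendrocyte markers, Mbp and Mobp had log2 fold changes of 1.15 (SE 0.51) and 1.67 (SE 0.49) in the authors' deposited table. In the deep intratelencephalic list, Etv1, a layer 5 factor, had an SE 4.21 times the running median at its mean count, above the ratio of 3.18 of Bcl11b.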
